A study of Mus musculus with 14 samples.

Results

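The genes described here are the FGF, IGF and HGF branching signals of the mouse mammary gland, namely the ligands Fgf2, Fgf7, Igf1 and Hgf, the receptors Fgfr1, Fgfr2, Igf1r and Met, and the IGF binding proteins Igfbp3 and Igfbp5. They were taken by gene symbol from the deposited expression table, which held 10 of the 10 genes among 16124 in all. The table came from RNA-seq of mammary epithelial cells from 7 WT and 7 Usp22 OE/OE nulliparous females aged 3.5 months, 1 library per mouse, paired as littermates with the pair numbers 1, 3, 4, 5, 6, 7 and 8. OE/OE mice were homozygous for a FLAG- and MYC-tagged mouse Usp22 cDNA at ROSA26 under the CAGGS promoter, with the STOP cassette removed by Zp3-Cre, so that Usp22, a deubiquitinase of the SAGA complex, was overexpressed in all tissues and not only in the epithelium. Their WT littermates lacked this allele. The comparison asks whether genes of the signaling cascades that shape mammary branching differed in cells with high Usp22.

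Mammary ducts branch under signals that pass between the stroma and the epithelium. FGF ligands bind tyrosine kinase receptors with heparan sulfate as a cofactor, and the epithelial form of Fgfr2 receives Fgf7 and Fgf10 from the stroma. Igf1, which acts downstream of growth hormone in the gland, signals through Igf1r, while the binding proteins hold IGFs outside the cell and limit or prolong their access to the receptor. Hgf, a product of mesenchymal cells, binds Met on epithelial cells and was first known for scattering them and for inducing tubules.

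Between 20125106 and 41835978 fragments per library were counted on genes, the shallowest being those of WT mice 1 and 8. Usp22 was between 3500 and 5380 normalized counts in WT and between 74948 and 144288 in OE/OE, so each library matched its label. The defining epithelial genes were abundant in every library, with at least 34412 normalized counts of Epcam and at least 99133 of Krt8. Fibroblast genes were also present, with at least 8027 normalized counts of Dcn, so the preparations were not free of stroma. In these bulk samples fewer cells of a type and less RNA per cell cannot be told apart. Nothing in the labels names a sequencing batch.

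Levels were compared between genes as normalized counts per kilobase of exon, with the union of the annotated exons as the length. Igfbp5 was the most abundant of the 10, with a median of 12593 normalized counts per kilobase over the 14 libraries (5617 to 23175). It was above the other 9 genes in each library except that of OE/OE mouse 4, where Igfbp3 was at 7144 and Igfbp5 at 5617 per kilobase. Fgfr2 (median 1828, 980 to 2392 per kilobase), Igfbp3 (1644, 1003 to 7144) and Fgfr1 (1093, 734 to 1591) followed. The ranges of these 3 overlapped, and Fgfr2 was above Igfbp3 in 8 of the 14 libraries. Met had a median of 553 per kilobase (376 to 782) and lay above Igf1r in all 14 libraries, with no overlap of the ranges.

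Igf1r (median 189, 140 to 341 normalized counts per kilobase) was the least abundant receptor, and the ligands were lower still. Fgf2 had a median of 125 (66.2 to 214), Hgf of 99.2 (46.3 to 357), Igf1 of 58.9 (26.0 to 80.0) and Fgf7 of 33.0 (7.68 to 53.5). Ranges of neighbours in this order overlapped throughout the ligands, and Fgf2 was above Hgf in 9 of 14 libraries. With the longest annotated transcript as the length, Hgf (206) passed Fgf2 (142) and Fgfr1 (2140) passed Igfbp3 (2125). The median of each receptor was thus above that of each ligand with either length. With the longest transcript the ranges of Met (424 to 882) and Igf1r (206 to 502) overlapped, though Met stayed above Igf1r in all 14 libraries. Gene counts do not separate the epithelial and mesenchymal splice forms of Fgfr1 and Fgfr2.

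**Figure D1:**
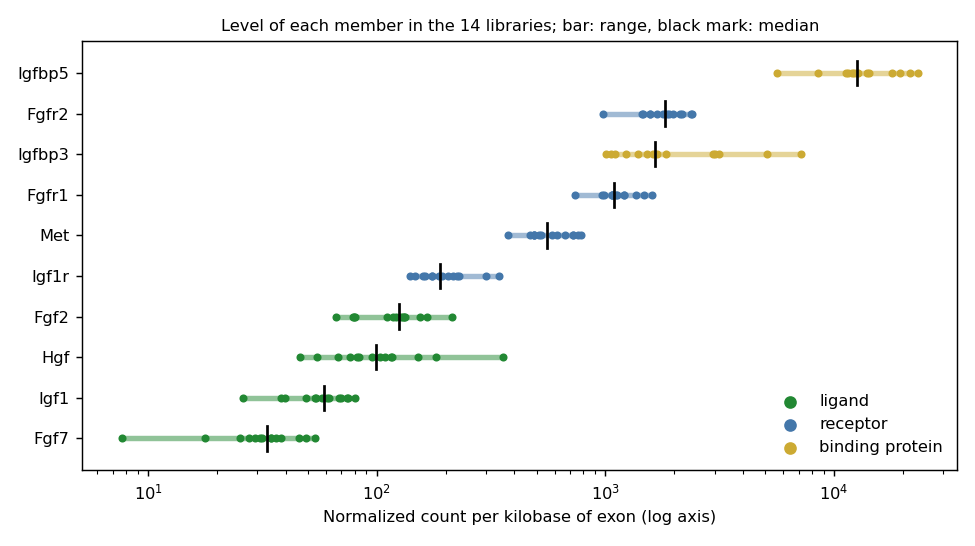
Normalized counts per kilobase of exon (log axis) of the 10 genes in the 14 libraries (points), with the range (bar) and median (black mark). Igfbp5 has the highest median (12593), with its lowest point (5617) below the highest of Igfbp3 (7144), the 4 receptors lie between 140 and 2392, and the 4 ligands lie at the bottom, with medians between 33.0 and 125.

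Shown are the promoters of the most abundant and the least abundant gene, and of the gene whose ratios between littermates had the largest SD. Each also carries a TATA-like run near its start, which was a reason to show it. RefSeq windows (GRCm38.p6) were found for 9 of the 10 genes, and for Fgfr1 none was used here. Each sequence below is 100 bases read 5′ to 3′ on the strand of the gene and ends at the base before the first annotated start, and the capitals mark the run TATTTA or TATATA.
Igfbp5 (chr1:72874885-72874984, minus strand): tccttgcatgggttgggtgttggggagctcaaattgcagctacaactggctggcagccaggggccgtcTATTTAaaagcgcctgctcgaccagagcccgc
Igfbp3 (chr11:7213924-7214023, minus strand): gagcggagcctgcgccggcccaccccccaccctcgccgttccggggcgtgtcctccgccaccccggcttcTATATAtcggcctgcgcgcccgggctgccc
Fgf7 (chr2:126034558-126034657, plus strand): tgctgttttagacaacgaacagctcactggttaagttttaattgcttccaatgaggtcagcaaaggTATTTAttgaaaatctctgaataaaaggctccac
Counted from the first annotated start, the run began 32 bases before it in Igfbp5, 30 in Igfbp3 and 34 in Fgf7. In Igfbp5 the RefSeq start lay further downstream, so the run was farther from that start. Both motifs were searched on both strands in the last 60 bases before the RefSeq start, after these sequences had been seen, and 2.96% of 32851 mouse promoter windows held TATTTA and 1.56% held TATATA. In the 250 bases before the start, the ratio of observed to expected CpG was 1.12 in Igf1r, 0.96 in Igfbp3, 0.86 in Fgf2 and 0.70 in Met, against a median of 0.373 over all windows. It was 0.51 in Fgf7, 0.46 in Igfbp5, 0.30 in Igf1, 0.17 in Fgfr2 and 0.27 and 0.33 in the windows of Hgf. The run GGGCGG, on either strand, was in the windows of Fgf2, Igf1r and Met and in 32.7% of all windows. These are descriptions of the letters in the windows and do not show which factors act there.

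Expression was then compared within littermate pairs by limma, fitted to log2(normalized count + 1) with a term for each pair. Of the 10 genes, 1 passed the threshold that the study used, an unadjusted p of 0.05 or less, and it was lower in OE/OE. This was Fgf2. The study applied that threshold to a paired t-test on normalized counts. In a paired test of untransformed normalized counts Fgf2 did not pass it (unadjusted p = 0.0865). In limma 3.81% of all 16124 genes passed the threshold, 1.85% as lower and 1.95% as higher in OE/OE. The 1 of 10 in limma is close to what the whole table gives. No gene of the 10 had a Benjamini-Hochberg adjusted p under 0.05 over all genes in limma, which 0.0124% of all genes had. With edgeR on the recovered fragments the unadjusted count was also 1 of 10, against 3.7% of all genes, and with DESeq2 it was 1 of 10, against 3.88%. Without the pair as a block it was 0 of 10, against 1.13%. In none of the 10 did the WT and OE/OE groups separate without overlap, which 0.0434% of all genes did. The log2 fold change was below 0 in 6 of the genes and above 0 in 4, with a median of -0.042, against -0.001 over all genes.

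**Figure D2:**
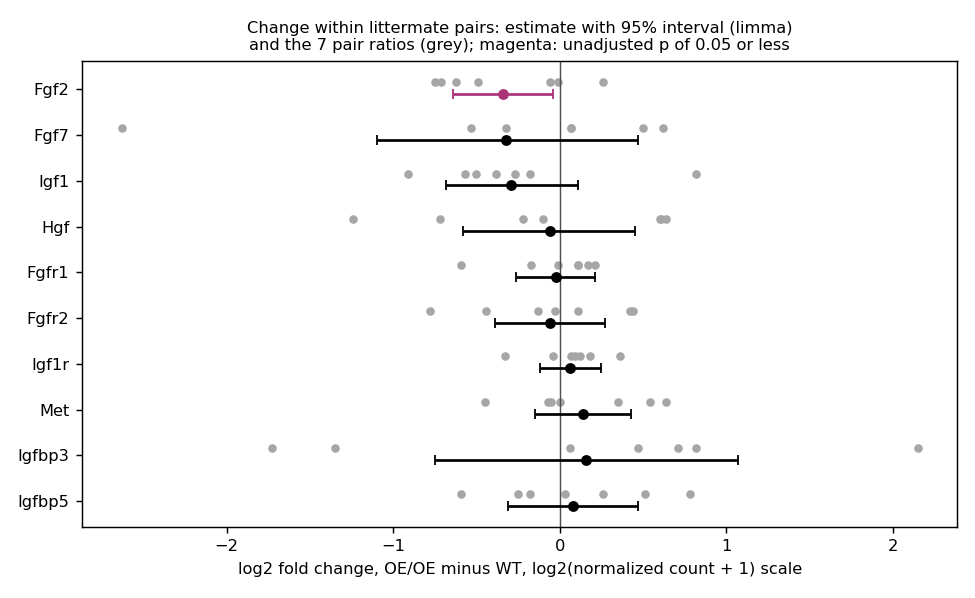
Log2 fold change of each gene, OE/OE minus WT, with its 95% interval from limma (circles and bars) and the 7 pair ratios (grey points). The interval of Fgf2 (-0.64 to -0.04, magenta) excludes 0, and those of the other 9 genes include it, most widely for Igfbp3 (-0.75 to 1.07).

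Fgf2 (chromosome 3, 37348346 to 37410108, plus strand, GRCm38) encodes basic FGF, which lacks a classical secretion signal and is held by heparan sulfate in the matrix. In WT mice it had a lowest value of 545 normalized counts, a median of 879 and a highest of 1454. In OE/OE mice these were 449, 802 and 1053. The groups overlapped widely, and the difference lay within pairs. Its log2 fold change was -0.34 (SE 0.13, limma unadjusted p = 0.0318, adjusted p = 1.00), an OE/OE level of 0.791 times WT with a 95% interval from 0.641 to 0.975.

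Fgf2 was lower in OE/OE in 6 of 7 pairs, a direction and consistency that 6.79% of all genes had. Pairs 1, 5, 6 and 7 had log2 ratios between -0.75 and -0.49, pairs 3 and 4 were at -0.01 and -0.06, and pair 8 went the other way at 0.26. By exact sign flips of the 7 pair ratios (two-sided, smallest p possible 0.0156) p was 0.0781, which did not pass 0.05. The limma call was lost with pair 1, 5, 6 or 7 left out (log2 fold changes of -0.31 to -0.27, unadjusted p = 0.0757 to 0.0887), without the pair as a block (unadjusted p = 0.156) and in a paired test of untransformed counts (unadjusted p = 0.0865). With the pan-epithelial marker score as a covariate the log2 fold change was 0.09 (unadjusted p = 0.693). The call stayed with the fibroblast (-0.40, unadjusted p = 0.0461), adipocyte (-0.59, unadjusted p = 0.0029) or endothelial score (-0.37, unadjusted p = 0.00988) in its place. The pan-epithelial score itself was higher in OE/OE in 6 of 7 pairs.

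Fgf2 shares 640 bases of exon, 9.4% of its exon length, with Nudt6, the gene antisense to it. Whether strand was used in counting is not given in the sources used here, so fragments from this stretch could not be assigned to one gene. Nudt6 averaged 92.5 normalized counts (SD 16.6) in the 7 WT mice and 94.4 (SD 33.5) in the 7 OE/OE mice, with a log2 fold change of -0.03 (95% interval -0.43 to 0.36), and its counts were far fewer than those of Fgf2.

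Fgf7 (chromosome 2, 126034658 to 126091185, plus strand), keratinocyte growth factor, is made by stromal cells and acts on the epithelium. It had 57.5, 112 and 160 normalized counts (lowest, median and highest) in WT and 24.9, 101 and 174 in OE/OE, and rested on as few as 26 fragments in a library. The lowest value was that of OE/OE mouse 4, with a log2 ratio of -2.63 to its littermate, while the other 6 pairs lay between -0.53 and 0.62. The groups otherwise covered the same range. The log2 fold change was -0.32 with a 95% interval from -1.10 to 0.47 (limma unadjusted p = 0.387, adjusted p = 1.00), and without pair 4 it was 0.07.

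Igf1 (chromosome 10, 87858265 to 87937042, plus strand), the growth factor ligand of Igf1r, had 392, 676 and 792 normalized counts (lowest, median and highest) in WT and 257, 569 and 691 in OE/OE. It was lower in OE/OE in 6 of 7 pairs, by log2 ratios of -0.91 to -0.18, and higher in pair 1, at 0.82, where the WT mouse was the lowest of its group and the OE/OE mouse the highest. The log2 fold change was -0.29 (95% interval -0.68 to 0.11, limma unadjusted p = 0.139, adjusted p = 1.00; exact sign-flip p = 0.2031). Without pair 1 it was -0.47, with an unadjusted limma p of 0.00251. With a marker score as a covariate it was 0.06 (fibroblast), 0.11 (adipocyte), -0.21 (endothelial) or -0.28 (pan-epithelial), with no call.

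Hgf (chromosome 5, 16553495 to 16620152, plus strand), the ligand of Met, had 393, 689 and 2566 normalized counts (lowest, median and highest) in WT and 333, 737 and 1301 in OE/OE. The WT mouse of pair 5, at 2566, stood above all others, and its OE/OE littermate had 1086. Pairs were split, with 4 lower and 3 higher and log2 ratios from -1.24 to 0.64. The log2 fold change was -0.06 (95% interval -0.58 to 0.45, limma unadjusted p = 0.791, adjusted p = 1.00). This interval covers OE/OE levels from 0.67 to 1.37 times WT.

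**Figure D3:**
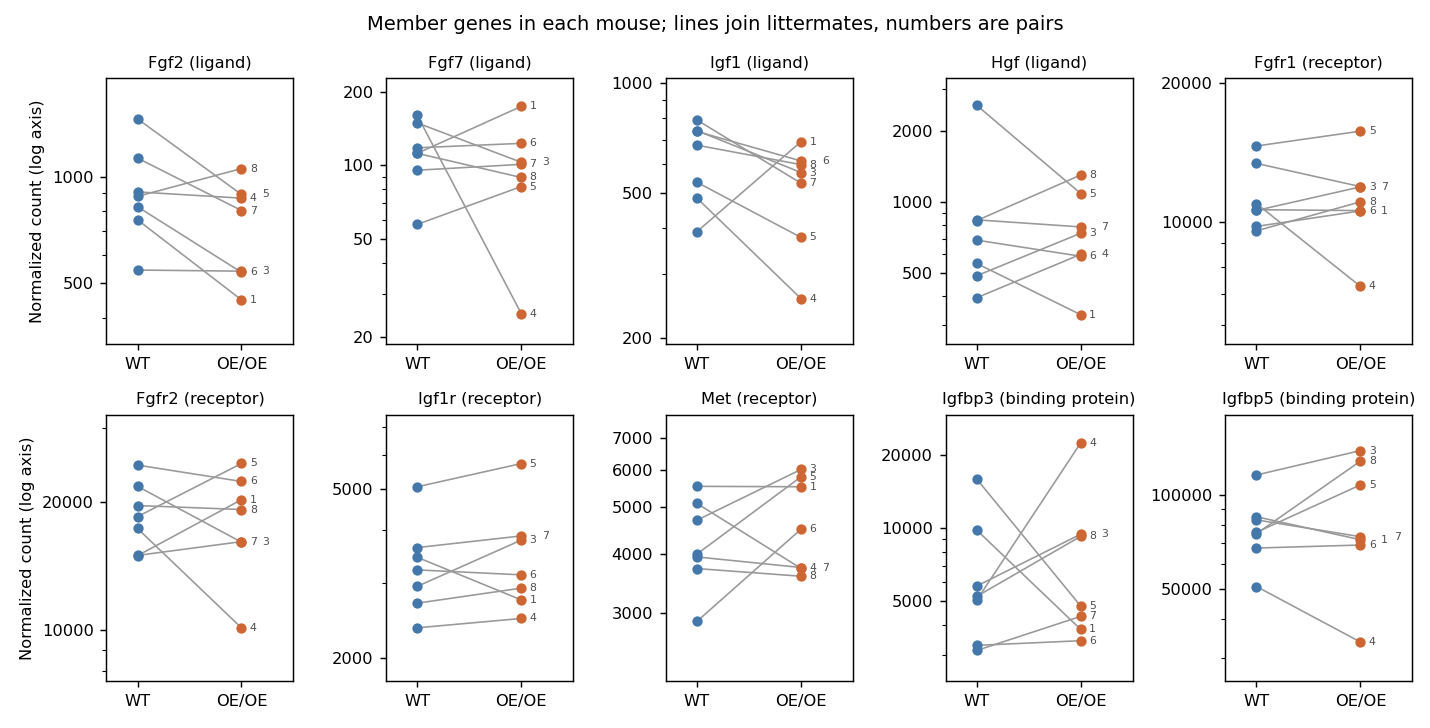
Normalized counts (log axis) of the 10 genes in the 7 WT (blue) and 7 OE/OE (orange) mice, with littermates joined by lines and OE/OE points numbered by pair. The groups overlap in each panel, mouse 4 is the lowest OE/OE mouse for 6 genes and the highest for Igfbp3, and the WT mouse of pair 5 is the highest WT mouse for 5 genes.

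None of the 4 receptors passed the threshold in limma. Fgfr1 (chromosome 8, 25513654 to 25575718, plus strand) had 9566 to 14592 normalized counts in WT (median 10626) and 7253 to 15711 in OE/OE (median 11051). Its log2 fold change was -0.02 with a 95% interval from -0.26 to 0.21, an OE/OE level between 0.836 and 1.16 times WT. Fgfr2 (chromosome 7, minus strand), the receptor for Fgf7 and Fgf10 in its epithelial form, had 14983 to 24493 normalized counts in WT (median 18519) and 10125 to 24706 in OE/OE (median 19246). Its log2 fold change was -0.06 (95% interval -0.39 to 0.27). In both genes OE/OE mouse 4 had the lowest value of all 14, at log2 ratios of -0.59 and -0.78. The annotated span of Fgfr2, 130162451 to 133123350, includes long read-through transcripts that share 314 bases of exon with Ctbp2.

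Igf1r (chromosome 7, 67952827 to 68233668, plus strand), the tyrosine kinase receptor for Igf1 and Igf2, had 2353 to 5051 normalized counts in WT (median 3220) and 2475 to 5728 in OE/OE (median 3135). It had the narrowest interval, with a log2 fold change of 0.06 (95% interval -0.12 to 0.25), an OE/OE level between 0.918 and 1.19 times WT. Both mice of pair 5 were the highest of their group and both mice of pair 4 the lowest. Littermates therefore resembled each other, and the pair accounted for 91.4% of the spread of Igf1r over the 14 libraries. The genotype accounted for 0.831%.

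Met (chromosome 6, 17463800 to 17573980, plus strand), the receptor for Hgf, had 2884 to 5535 normalized counts in WT (median 3991) and 3586 to 6005 in OE/OE (median 4500). Its log2 fold change was 0.14 (95% interval -0.15 to 0.43, limma unadjusted p = 0.318, adjusted p = 1.00). Pairs 3, 5 and 6 were higher in OE/OE, by 0.35 to 0.64 on the log2 scale, and the other 4 pairs were between -0.45 and -0.00.

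The binding proteins differed from each other in spread. Igfbp5 (chromosome 1, 72857932 to 72874884, minus strand), a binding protein that binds matrix and rises in the involuting gland, had 50891 to 116184 normalized counts in WT (median 76017) and 33738 to 139189 in OE/OE (median 73578). Its log2 fold change was 0.08 (95% interval -0.31 to 0.47). Both mice of pair 4 were the lowest of their group and both mice of pair 3 the highest, and the pair held 81.6% of the spread.

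Igfbp3 (chromosome 11, 7206086 to 7213923, minus strand), the main IGF carrier of serum, had 3139 to 15883 normalized counts in WT (median 5236) and 3443 to 22360 in OE/OE (median 4776). The 2 highest mice were the OE/OE mouse of pair 4 (22360) and the WT mouse of pair 5 (15883). Its pair log2 ratios ran from -1.73 in pair 5 to 2.15 in pair 4, with an SD of 1.33, the largest of the 10 genes. The log2 fold change was 0.16 (95% interval -0.75 to 1.07, limma unadjusted p = 0.704, adjusted p = 1.00), and without pair 4 it was -0.17.

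Across the 10 genes the pair accounted for between 35.4% (Fgf7) and 91.4% (Igf1r) of the spread on the log2 scale. The median over all genes was 73.9%. The genotype accounted for 13.9% in Fgf2, 10.8% in Igf1 and under 6% in each of the others, against a median of 1.43% over all genes. The SD of the pair ratios was above the median of all genes (0.36) in 8 of the 10. Among OE/OE mice, mouse 4 was lowest for Fgfr1, Fgfr2, Fgf7, Igf1, Igf1r and Igfbp5. Among WT mice, mouse 5 was highest for Fgfr1, Fgf2, Igf1r, Igfbp3 and Hgf.

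Markers of other cell types moved in some of the same pairs. The fibroblast score, the mean log2(normalized count + 1) of 10 markers (10 of 10 in the table), averaged 12.47 (SD 0.35) in the 7 WT mice and 12.05 (SD 0.53) in the 7 OE/OE mice. It was lower in 5 of 7 pairs (p = 0.125 by exact sign flips). The summed fibroblast markers were between 90951 and 183368 normalized counts in WT and between 59229 and 135290 in OE/OE. This score was higher in OE/OE in pair 1, by 0.67, and lower by 0.97 in pair 4, the pairs in which Igf1 and Fgf7 were at 0.82 and 0.62 and at -0.91 and -2.63. In pairs 5, 6 and 7, where the fibroblast score was lower by 0.73, 0.64 and 0.40, Igf1 was also lower (-0.50, -0.27 and -0.57), while Fgf7 was not (0.50, 0.07 and 0.07). In pair 3 the fibroblast score was lower by 0.86, and both Igf1 (-0.38) and Fgf7 (-0.53) were lower. In pair 8 the fibroblast score was at 0.02, with Igf1 at -0.18 and Fgf7 at -0.32. The endothelial score (10 of 10 markers, summed 51239 to 77443 in WT and 18080 to 110284 in OE/OE) was likewise 0.93 in pair 1 and -1.74 in pair 4. The pericyte score (6 of 6 markers, summed 16208 to 34868 and 9106 to 36096) was 0.86 and -1.47.

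The adipocyte score, from 9 of 10 markers, averaged 7.49 (SD 0.64) in WT mice and 6.67 (SD 0.79) in OE/OE mice, with lower scores in 6 of 7 pairs (p = 0.0625 by exact sign flips) and summed markers of 13622 to 34387 and 9975 to 30899 normalized counts. Of these markers, Plin1 averaged only 55.9 (WT) and 23.3 (OE/OE) normalized counts, on 7 to 84 fragments. Adipoq averaged 49.6 and 20.7, on 5 to 148 fragments. Plin1 and Adipoq thus made up little of the sums, and low counts limit this score. The pan-epithelial score (10 of 10 markers) averaged 13.27 (SD 0.18) in WT mice and 13.43 (SD 0.19) in OE/OE mice, with higher scores in 6 of 7 pairs (p = 0.0312 by exact sign flips) and summed markers of 156584 to 244542 and 156349 to 335631. Adjusted over the 9 marker lists both exact p-values were 0.281. With 7 pairs the smallest exact p is 0.0156, so a single list could not pass 0.05 after this adjustment. The other 7 lists had exact sign-flip p-values of 0.125 or more before adjustment. In limma 5 of the 9 adipocyte markers passed the unadjusted threshold as lower in OE/OE, against 1.85% of all genes. So did 2 of the 10 fibroblast markers. As higher in OE/OE, 2 of the 10 pan-epithelial markers passed, against 1.95% of all genes. The remaining lists held none. None of the listed markers in the table was at 0 in any library. The part of these cells in the values of Fgf7, Igf1 and Fgf2 was not tested beyond the fits with a marker score as a covariate.

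**Figure D4:**
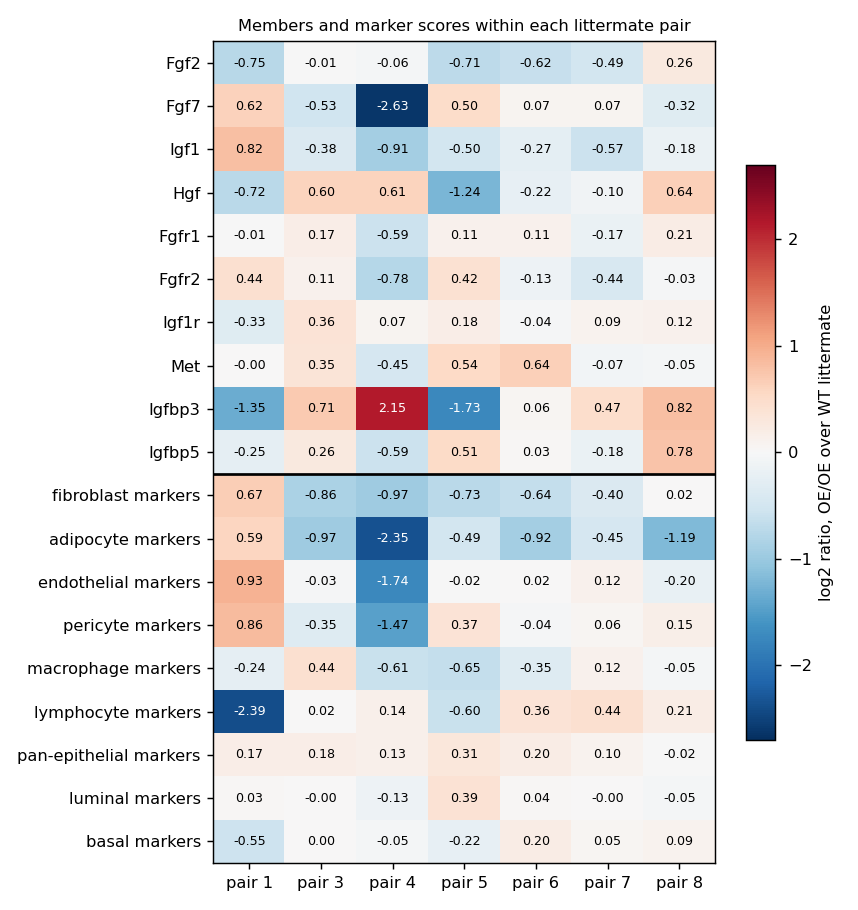
Log2 ratios of OE/OE over WT littermate in each pair for the 10 genes (above the line) and the 9 marker scores (below it), red for higher and blue for lower in OE/OE. Pair 4 holds the lowest ratios of Fgf7 (-2.63) and of the adipocyte (-2.35), endothelial (-1.74) and pericyte (-1.47) scores and the highest ratio of Igfbp3 (2.15).

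The ratio of a ligand to its receptor within a library, the difference of their log2(normalized count + 1) values, is given as a description. The log2 ratio of Igf1 to Igf1r averaged -2.42 (SD 0.53) in the 7 WT mice and -2.77 (SD 0.66) in the 7 OE/OE mice, lower in 6 of 7 pairs by 0.23 to 0.98 and higher in pair 1 by 1.15. For Fgf2 to Fgfr1 it was -3.66 ± 0.31 and -3.97 ± 0.56, lower in 5 of 7 pairs. Fgf7 to Fgfr2 (-7.39 ± 0.61 and -7.64 ± 0.60) and Hgf to Met (-2.48 ± 1.05 and -2.68 ± 0.80) were lower in 3 and 4 of 7 pairs. In all 4 ligand and receptor couples the mean difference was smaller than the SD of the 7 pair differences.

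The wider pathways were read from 9 lists of 96 genes in all, of which 77 were in the table. Of these 77, 6 passed the unadjusted threshold in limma (7.79%, against 3.81% of all genes), 1 higher and 5 lower in OE/OE, and 0 passed after adjustment over all genes. Their median log2 fold change was -0.04. The lists overlap, hold the 10 genes above and were written with earlier results of these mice known, so the share is a description. With 3.81% of all genes passing, lists as short as these would often hold no passing gene. Among the FGF ligands (11 of 22 in the table, median log2 fold change -0.32), 1 rose, 3 fell and 7 did not pass.

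Fgf12 and Fgf13 were 2 of these 4. Both encode intracellular FGF homologous factors, which are not secreted receptor ligands. Fgf12 was low, with median normalized counts of 17.1 (WT) and 23.6 (OE/OE), and was higher in 7 of 7 pairs (log2 fold change 0.68, 95% interval 0.20 to 1.16, limma unadjusted p = 0.0109, adjusted p = 1.00). Fgf13 had medians of 693 and 600 and was lower in 7 of 7 pairs (log2 fold change -0.53, lowest pair ratio -1.93, limma unadjusted p = 0.0311, adjusted p = 1.00). Fgf23, a hormone of phosphate balance, fell (log2 fold change -0.87, 95% interval -1.58 to -0.16), with lower values in 5 of 7 pairs, on 14 fragments in the lowest library. Of the FGFs that act locally through FGF receptors, only Fgf2 passed. Fgf1, with the most counts per kilobase of the FGF ligands (433), had a log2 fold change of 0.03 (95% interval -0.22 to 0.28), and Fgf10, the stromal ligand of Fgfr2 in the embryonic gland, one of -0.39 (95% interval -1.24 to 0.47).

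No gene passed among the 11 FGF receptors and coreceptors in the table (median -0.06), where Sdc1, a heparan sulfate proteoglycan, was the most abundant per kilobase (3568) at a log2 fold change of -0.04 (95% interval -0.48 to 0.40). The same was true of the 15 adaptors, feedback inhibitors and targets of FGF signaling, with a median of -0.00. Dusp6, an ERK phosphatase, and Spry2, a Sprouty inhibitor, are induced when FGF receptors signal. Dusp6 had a log2 fold change of -0.02 (95% interval -0.33 to 0.29) and Spry2 one of -0.01 (-0.32 to 0.31).

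Among the 6 IGF ligands and receptors, 1 fell, Insrr, an orphan relative of the insulin receptor that senses alkaline pH. It lay between 8.32 and 29.0 normalized counts in WT and between 0 and 16.9 in OE/OE (log2 fold change -1.23, limma unadjusted p = 0.0183, adjusted p = 1.00), too few for a firm estimate. Igf2r, which clears Igf2, and Insr, the insulin receptor, were the most abundant per kilobase, with log2 fold changes of -0.09 and -0.03. Of 12 binding proteins and their proteases, 1 fell. Stc1, a stanniocalcin, which inhibits the protease that cleaves IGF binding proteins, had medians of 1136 and 1009 normalized counts and a log2 fold change of -0.39 (95% interval -0.71 to -0.07). Igfbp7, the most abundant per kilobase after Igfbp5, was at -0.13 (95% interval -0.52 to 0.26). None of the 6 genes of the IGF adaptors and growth hormone axis passed, where Irs2 and Shc1, adaptors of the insulin and IGF receptors, led in level, at 0.19 and -0.10. Shc1 was lower in 7 of 7 pairs, with 4132 to 4568 normalized counts in WT against 3672 to 4141 in OE/OE. Its p by exact sign flips was 0.0156, the smallest possible, which Fgf12 and Fgf13 also had. The limma interval of the log2 fold change of Shc1 (-0.24 to 0.04) included 0. The share of all genes with the same direction in 7 of 7 pairs was not counted, so these exact p-values are a description.

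On the HGF side 0 of 3 ligands and receptors, 0 of 7 activators and inhibitors and 0 of 8 Met adaptors and regulators passed in limma. Over all genes 3.81% passed. The median log2 fold changes of these lists were -0.06, -0.03 and 0.10. Spint1 and Spint2, Kunitz inhibitors of the proteases that activate Hgf, were the most abundant of their list per kilobase (2409 and 2834). Their log2 fold changes were 0.07 (95% interval -0.15 to 0.30) and -0.00 (-0.19 to 0.18). Grb2 and Gab1, the adaptors that couple Met to ERK and PI3K, were at 0.02 (95% interval -0.12 to 0.17) and 0.17 (-0.04 to 0.38).

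**Figure D5:**
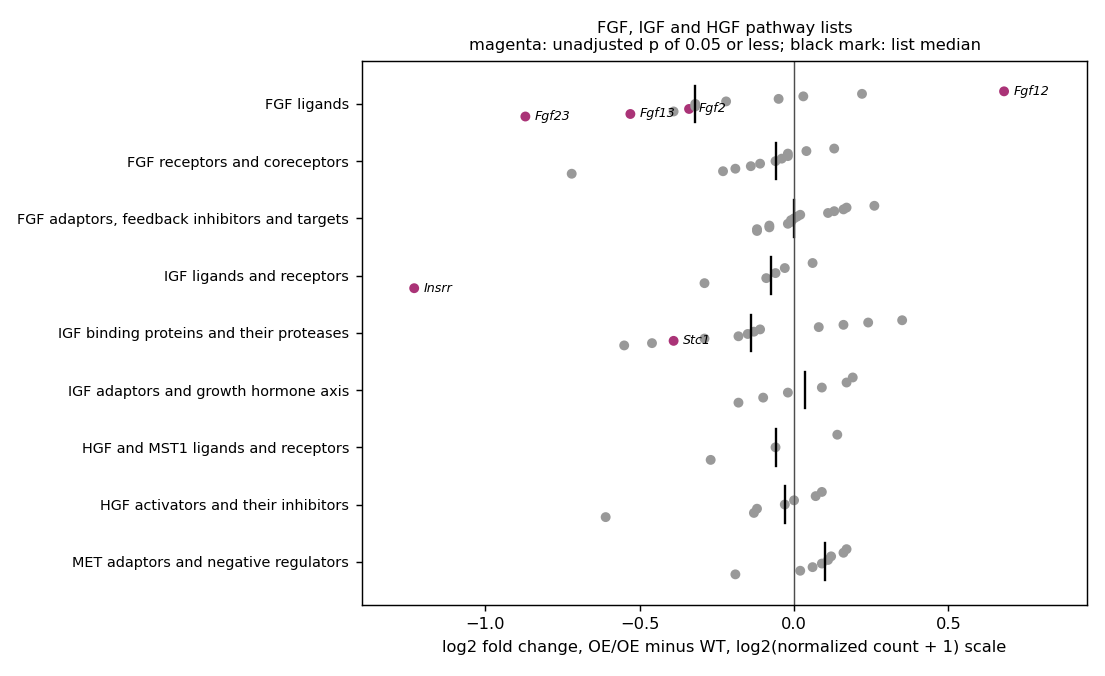
Log2 fold change, OE/OE minus WT, of each gene of the 9 pathway lists, with magenta for those past the unadjusted threshold and the list median as a black mark. The 6 magenta genes are Fgf2, Fgf12, Fgf13, Fgf23, Insrr and Stc1, and the 15 FGF adaptors, inhibitors and targets lie between -0.12 and 0.26.

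The genes whose pattern over the 14 libraries was most like that of each member were found by Pearson's r of log2(normalized count + 1) among 13230 genes with a mean of at least 50. They are a description, picked as the highest of many, and littermates are not independent. For Fgf2 they included Crispld2 (r = 0.915) and Armc9 (0.900). Fgf7 was followed by Gpm6a (0.976), Acvrl1 (0.964) and Tifa (0.957), and Igf1 by Acp2 (0.915), Srpx (0.909) and Iigp1 (0.906). For Hgf they were Zfp397 (0.923), Miga1 (0.919) and BC034090 (0.907). The r values of Fgf7 include OE/OE mouse 4, with a log2 value of 4.70 against 6.37 in the nearest OE/OE mouse.

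Fgfr1 was followed by Spag9 (r = 0.945), Erbb4 (0.940) and Jak1 (0.934), Fgfr2 by Sorl1 (0.948), Pitpnm3 (0.943) and Tmcc2 (0.928), and Igf1r by Srrm2 (0.930), Fnbp1 (0.929) and Zfp318 (0.926). Met had the lowest values of the 10, among them Fam107b (0.878) and Muc1 (0.851). For Igfbp3 they were Zdhhc13 (0.943), Thoc1 (0.941) and Panx1 (0.927), and for Igfbp5 Luzp2 (0.915), Anpep (0.877) and Egr3 (0.864). No member was among the genes nearest to another member, and none of the genes named here for their likeness was on a marker list. Each marker list holds only 6 to 10 genes, so absence from them does not show that a gene is free of cell type differences.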

How the data were processed

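RNA was measured in mammary epithelial cells of 7 littermate pairs. The authors mapped 2 × 75 base read pairs to mm10 with TopHat 2.0.10, counted fragments per GENCODE M21 gene with htseq-count (HTSeq 0.6.0), dropped genes that did not reach 10 fragments in 7 or more libraries and deposited the counts divided by DESeq 1.18.0 size factors, a signal on a linear scale. 100% of the values in each library were whole multiples, within 0.001, of the value of 1 fragment, so fragments were recovered. Depth limits low genes most.

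The main test was limma 3.58.1 (R 4.3.3, trend) on log2(normalized count + 1) over all 16124 genes, with the pair as a block, replacing the study's per-gene paired test. All identifiers matched GENCODE M21 (GRCm38), the source of positions and lengths. The pairing comes from the labels and methods, which match littermates. Deviations of littermates from their group mean were correlated across genes at 0.171 or more (median 0.522, other combinations -0.151). Deviations from a group mean sum to 0, so positive values in littermates themselves pull the other combinations below 0. Single genes and marker scores were tested by exact sign flips (128 patterns). Alternatives included edgeR 4.0.16 and DESeq2 1.42.0. The limma and edgeR tests were also run on simulated counts, which held no differences between pairs. That check therefore does not cover the pairing, and the sign-flip test and DESeq2 were not part of it. Named genes were the members, pathway genes past the threshold, the 2 most abundant per list and the 3 most alike per member, of which a few are not reported here. Members and lists were chosen with earlier results of these data known. Where a log2 fold change of a gene with few counts is given, the added 1 understates it.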

Additional observations from a re-analysis of the deposited data

Results flagged for a closer look

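In 38 groups of 7 mice (the 10 genes and the 9 marker scores in each genotype), 4 held a mouse that lay far from the rest, by a gap to its nearest neighbour above Dixon's 95% critical share of the range, where chance gives about 1 in 20, or 1.9. Hgf was far higher in WT mouse 5 than in the other WT mice, at a log2(normalized count + 1) of 11.33 (nearest 9.72, gap 0.596 of the range). OE/OE mouse 4 had the lowest Fgf7, at 4.70 (nearest 6.37, gap 0.610), and the lowest pericyte marker score, at 9.11 (nearest 10.51, gap 0.637). The highest lymphocyte marker score was that of WT mouse 1, at 7.18 (nearest 4.73, gap 0.656).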

How the results depend on the processing

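Over 21 alternatives for each of the 10 genes, 177 of 210 log2 fold changes kept their direction and their side of the threshold and 25 changed sign. Calls were lost 7 times, each time that of Fgf2, and gained 4 times (Igf1, Hgf, Fgf7 and Igfbp3). Fgf2 kept its call in 14 of 21 (p from 0.0029 to 0.693). Without the replicate block, 182 of all genes and 0 of the 10 passed, against 614 and 1 with the littermate pairing. The other 9 had no call with or without it. The paired test on untransformed counts, the kind of test that the study names, called 644 of all genes and 0 of the 10. The adipocyte score as a covariate gave 2995 genes and 4 of the 10 (Fgf2, Fgf7 at 0.60, Igfbp3 at -0.88 and Hgf at -0.53), and set Fgfr1 to 0.11, Fgfr2 to 0.25, Igf1 to 0.11 and Igf1r to -0.04. The pan-epithelial score gave 286 genes and 0 of the 10, with Fgf2 at 0.09, Hgf at 0.74 and Met at -0.23. The fibroblast score set Fgfr1 to 0.03, Fgfr2 to 0.09, Fgf7 to 0.11, Igf1 to 0.06, Igf1r to -0.05 and Igfbp3 to -0.27. The endothelial score, added after seeing the data, gave 1179 genes, with Fgfr1 at 0.01 and Igfbp3 at -0.01, and quantile normalization set Igfbp5 to -0.04. The cause of these changes was not tested.

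With 1 pair left out, 381 (without pair 6) to 1366 (without pair 4) genes and 0 to 1 of the 10 passed, and 1196 genes without pair 1. Signs changed for Fgfr1 (-0.06 to 0.07), Fgfr2 (-0.14 to 0.06), Fgf7 (-0.47 to 0.07) and Igfbp3 (-0.17 to 0.47) without pair 4, for Igfbp5 (-0.04 to 0.19) without pair 8 and for Hgf (-0.18 to 0.13) without pair 1 or 5. Without pair 1 the call passed from Fgf2 to Igf1. Few fragments limit Fgf7, Fgf12, Fgf23 and Insrr.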
